A study of Mus musculus with 6 samples.

Results

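The genes described here are those of the tricarboxylic acid (TCA) cycle in alveolar macrophages of wildtype and Sdha-knockout mice: its enzymes, the subunits and assembly factors of succinate dehydrogenase, the enzymes that feed the cycle or drain it, carriers of citrate and dicarboxylates, the succinate receptor and itaconate synthase. They were chosen by name from a list of 35 symbols. Of these, 34 had a row in the deposited count table of 23282 rows. The remaining symbol, Acod1, is the current name of the row listed as Irg1. Of the 34 members, 29 passed the filter on low counts and were tested, and 5 (Sdhaf3, Me1, Pcx, Slc25a10 and Sucnr1) did not pass it and are given as counts.

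RNA came from alveolar macrophages, phagocytes that live in the alveoli, sorted from mouse lung as CD45+, CD11c+, F4/80+ and SiglecF+ cells without CD11b. The 3 libraries labelled wildtype were compared with 3 labelled Sdha-knockout (Sdha-KO), from mice with floxed Sdha and LysM-Cre. LysM-Cre is expressed from the Lyz2 locus in myeloid cells at large, so the deletion is not limited to alveolar macrophages. The labels call the controls wildtype and say nothing of floxed alleles or Cre in them, of age or sex, or of whether a library held 1 mouse or a pool. Each of 3 batches held 1 library of each genotype, and since nothing says that libraries came from separate mice, p-values cover the spread among libraries, part of which may be technical.

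The TCA cycle oxidises acetyl groups in the mitochondrial matrix and passes the electrons to the respiratory chain. Succinate dehydrogenase is both an enzyme of the cycle, which turns succinate into fumarate, and complex II of that chain. SDHA carries the FAD cofactor and the succinate site, SDHB carries iron-sulphur clusters, and SDHC and SDHD anchor the complex in the inner membrane. In macrophages, succinate can accumulate and act as a signal, and citrate can be drawn off to make acetyl-CoA for lipids or itaconate, which itself inhibits succinate dehydrogenase.

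Total counts ranged from 5400160 to 8472907 per library. Both batch 1 libraries stood apart, where wildtype replicate 1 had counts in 7893 genes and Sdha-KO replicate 1 in 5438; the other 4 libraries had 11383 to 13050. Of the 5075 genes that reached 50 counts in all 4 of the latter, wildtype replicate 1 had 8.22% at 0 and Sdha-KO replicate 1 had 27.6%. Of 19 members that abundant, Idh3a and Sdhd were at 0 in wildtype replicate 1, and Idh2, Idh3g and Sdhd in Sdha-KO replicate 1. Values are CPM, the counts a gene would have in a library of 1000000 counts after scaling by composition factors (TMM), in the order of replicates 1, 2 and 3, and fitted results are repeated without both batch 1 libraries. A gene at 0 could have had as many as 3 counts by counting error alone, or 0.25 to 0.666 CPM, a limit that does not cover the many zeros of the batch 1 libraries. In the 4 libraries then kept sex-linked genes also differed between the genotypes: Xist, expressed from the inactive X, had 4608 and 6055 counts in wildtype and 498 and 822 in Sdha-KO libraries, and the Y-linked Ddx3y had 0 and 143 against 354 and 432. In those 4 libraries, genotype and sex cannot be told apart, and 3 of the 4 libraries held RNA of both genes. Batch 1 went the other way: Xist had 0 counts in wildtype and 2683 in Sdha-KO, and Ddx3y had 222 and 0. Of the genes of the gate, Siglecf had 103, 138 and 132 CPM in wildtype and 0, 39.6 and 45.3 CPM in Sdha-KO libraries, and Adgre1, which encodes F4/80, was also at 0 in Sdha-KO replicate 1.

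Before the values, the promoters of 3 members are shown: the targeted gene Sdha, Sdhd, a membrane anchor of the same enzyme whose window held 2 of the searched motifs, and Pck2, the member whose window held an ATF4-type element. RefSeq start sites of build GRCm38.p6 matched 31 of the 34 members, each with 250 bases before and 50 after the start. The 3 motifs below were searched on both strands of the windows of 300 bases, and matches in the sequences shown do not overlap. The NRF1 motif, bound by a regulator of nuclear genes for mitochondrial proteins, was present in 4.6% of 32851 promoters and in windows of 6 members (Dld, Sdha, Sdhaf3, Sdhaf4, Sdhd and Sucla2). The motif of estrogen-related receptors, spelled AAGGTCA, was present in 4.72% of promoters, in 1 of several Ogdh windows and in the Sdhd window. The percents count windows, so a member with several start sites had more windows in which a match could occur. The ATF4 motif, spelled TGATGNAA, was present in 3.97% of promoters and in the Pck2 window. Capitals mark the matches: 3 of NRF1 in Sdha, 1 of NRF1 and then 1 of the receptors in Sdhd, and 1 of ATF4 in Pck2. Such matches are descriptions of the letters and were not measured as binding.
Sdha, chr13:74350191-74350490, minus strand: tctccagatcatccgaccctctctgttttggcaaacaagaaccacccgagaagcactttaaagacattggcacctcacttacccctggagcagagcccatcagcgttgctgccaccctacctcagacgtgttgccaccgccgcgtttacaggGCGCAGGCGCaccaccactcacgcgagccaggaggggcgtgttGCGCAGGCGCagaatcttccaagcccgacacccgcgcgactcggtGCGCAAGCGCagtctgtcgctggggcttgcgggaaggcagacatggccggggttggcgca
Sdhd, chr9:50603800-50604099, minus strand: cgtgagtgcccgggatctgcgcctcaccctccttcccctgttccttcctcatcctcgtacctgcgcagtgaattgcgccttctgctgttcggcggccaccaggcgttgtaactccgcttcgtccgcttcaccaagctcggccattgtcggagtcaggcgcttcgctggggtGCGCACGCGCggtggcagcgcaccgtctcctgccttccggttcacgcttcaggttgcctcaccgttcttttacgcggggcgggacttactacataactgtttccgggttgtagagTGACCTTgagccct
Pck2, chr14:55540016-55540315, plus strand: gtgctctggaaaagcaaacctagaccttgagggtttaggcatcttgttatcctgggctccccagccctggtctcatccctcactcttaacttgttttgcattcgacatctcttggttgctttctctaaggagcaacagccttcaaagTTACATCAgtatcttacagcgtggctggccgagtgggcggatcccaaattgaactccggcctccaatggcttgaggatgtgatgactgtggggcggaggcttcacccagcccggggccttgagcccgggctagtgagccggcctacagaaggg

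Sdha (chr13:74322254-74350280, mm10, minus strand, protein-coding) was lower in each Sdha-KO library than in any wildtype library. It had 56.0, 65.5 and 72.2 CPM in wildtype and 26.1, 21.0 and 22.8 CPM in Sdha-KO libraries. The genotypes did not overlap, as was the case with Sdha-KO below for 9.27% of all tested genes, and each batch gave the same direction. The RNA was not absent from any Sdha-KO library. Which exons are deleted is not given in the sources used here, so counts of 3' ends may not check the deletion, and the source of the remaining RNA was not tested. The fitted log2 fold change was -1.47 (2.77-fold lower, SE 0.818, edgeR quasi-likelihood, Benjamini-Hochberg adjusted p = 1.00 over 9963 genes, of which 0.0502% were called). An exact two-sided permutation test of the 3 against 3 CPM values gave p = 0.1, the smallest that this design allows. Without both batch 1 libraries the log2 fold change was -1.64 (SE 0.369, edgeR adjusted p = 0.194, where 0.251% of all genes were called). With a replicate block added it passed (edgeR adjusted p = 0.0327, where 3.01% of all genes were called). A block and a genotype term fitted to so few libraries leave little to estimate the spread from, so this pass rests on little.

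Shares within a library do not depend on scaling, and they were computed after the values had been seen. Sdha held 5.16%, 6.35% and 6.08% of the counts of all 34 members in wildtype and 1.78%, 1.81% and 1.91% in Sdha-KO libraries. The means were 5.86% ± 0.627 and 1.83% ± 0.0658 (SD, n = 3), and the 95% Wilson intervals of the 2 genotypes did not meet, running from 4.72% to 7.09% over the wildtype libraries and from 1.51% to 2.23% over the Sdha-KO libraries. Sdha-KO replicate 1, which stood apart in other genes, gave nearly the same share as replicates 2 and 3, but this share also depends on the other members. In batch 1, Sdha had 457 counts in wildtype and 313 in Sdha-KO, while all 34 members had 8862 and 17566. Idh3a had 0 and 2211 of these counts, and Cs had 101 and 1482. Among the 4 subunits, Sdha held 19.7%, 39.9% and 32.8% of the counts in wildtype and 15.2%, 9.83% and 11.8% in Sdha-KO libraries. Here wildtype replicate 1, with 1663 counts of Sdhb, was close to the Sdha-KO range. PCR reads without molecular identifiers are not independent molecules, so these intervals cover counting error only.

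Among the other subunits, no library set separated by genotype. Sdhb, the iron-sulphur subunit, had 204, 61.9 and 119 CPM in wildtype and 136, 107 and 115 CPM in Sdha-KO libraries. The Sdha-KO values lay inside the wildtype range, and the fitted sign turned from -0.11 to 0.30 without both batch 1 libraries. Sdhc, a membrane anchor, had 24.1, 20.0 and 22.3 CPM in wildtype and 10.4, 50.8 and 35.6 CPM in Sdha-KO libraries. Its Sdha-KO libraries thus lay on both sides of a narrow wildtype range. The log2 difference was 0.54 (SE 1.30) with 6 libraries and 1.04 (SE 0.439, unadjusted p = 0.0466, edgeR adjusted p = 0.479) without both batch 1 libraries. Sdhc shares near-identical sequence in its 3' end with 4 other annotated genes, so its count is uncertain. Sdhd, the other anchor, had 0, 16.6 and 6.37 CPM in wildtype and 0, 35.1 and 19.5 CPM in Sdha-KO libraries. It was higher by 2.11-fold in batch 2 and 3.07-fold in batch 3, and the 2 genotypes did not pass the test there (log2 difference 1.26, SE 0.687, edgeR adjusted p = 0.606).

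**Figure D1:**
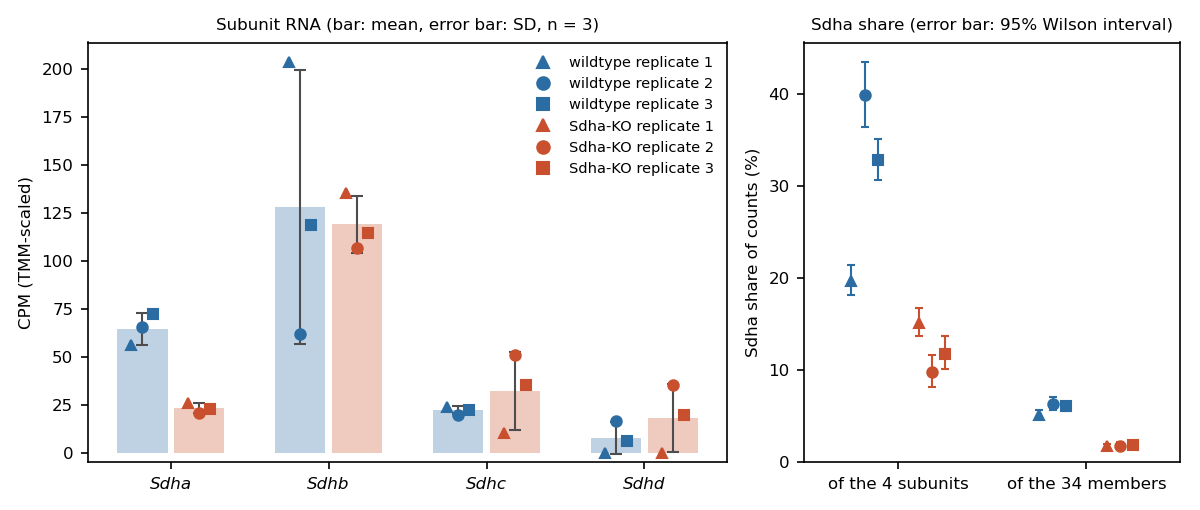
Left, RNA of the 4 succinate dehydrogenase subunits in CPM, with bars for means, error bars for SD (n = 3) and points for libraries; right, the percent of counts taken by Sdha among the subunits and among all 34 members, with 95% Wilson intervals. Sdha is lower in all 3 Sdha-KO libraries (21.0 to 26.1 against 56.0 to 72.2 CPM), while the libraries of Sdhb, Sdhc and Sdhd overlap.

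Assembly factors insert the cofactors of succinate dehydrogenase and join its subunits. Sdhaf2, which helps attach FAD to SDHA, had 0, 33.3 and 22.5 CPM in wildtype and 32.9, 5.76 and 15.6 CPM in Sdha-KO libraries. It was lower in Sdha-KO in batches 2 and 3, by 5.77-fold and 1.44-fold, and the batch 1 pair went the other way. Its log2 difference was -0.04 (SE 1.99) with 6 libraries and -1.37 (SE 0.674, edgeR adjusted p = 0.554) without both batch 1 libraries. Sdhaf4, which binds flavinylated SDHA, had 19.2, 16.6 and 3.69 CPM against 0, 16.6 and 14.0 CPM, so the genotypes overlapped. Sdhaf1, which serves the clusters of SDHB, had 0.98, 9.54 and 6.49 CPM in wildtype and 0, 14.3 and 15.4 CPM in Sdha-KO libraries. Its Sdha-KO value was higher in batches 2 and 3 and at 0 in batch 1. Sdhaf3, a further factor for SDHB, had 5 counts in wildtype replicate 2 and none in the other 5 libraries. Exons of Sdhaf1, Sdhaf2 and Sdhaf4 overlap those of a gene on the other strand, and the use of strand in counting is not given in the sources used here, so their counts are uncertain.

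On the path from citrate to 2-oxoglutarate, the mitochondrial NADP-dependent isocitrate dehydrogenase Idh2 (chr7:80094846-80115392, mm10, minus strand) was lower in every Sdha-KO library. It had 36.8, 39.9 and 44.8 CPM in wildtype and 0, 12.3 and 18.6 CPM in Sdha-KO libraries. The fitted log2 fold change was -1.98 (SE 1.79, edgeR adjusted p = 1.00). Without both batch 1 libraries it was -1.44 (SE 0.473, unadjusted p = 0.0168, edgeR adjusted p = 0.377), which did not pass. Its cytosolic counterpart Idh1 had 58.7, 63.9 and 81.4 CPM against 103, 37.6 and 54.3 CPM, with overlapping genotypes. Of the counts of both NADP-dependent genes, Idh2 took 38.5%, 38.5% and 35.5% in wildtype and 0%, 24.6% and 25.6% in Sdha-KO libraries. Sdha-KO replicate 1 is the library with 27.6% of abundant genes at 0, so its 0 is not bounded by counting error. In batches 2 and 3 alone, this share, computed after the values had been seen, was lower in Sdha-KO in both.

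The NAD-dependent isocitrate dehydrogenase, the cycle's own enzyme, has subunits encoded by Idh3a, Idh3b and Idh3g. Idh3a (chr9:54586334-54604661, mm10, plus strand), the catalytic subunit gene, had 0, 16.9 and 22.9 CPM in wildtype and 185, 25.7 and 40.5 CPM in Sdha-KO libraries. All Sdha-KO libraries lay above all wildtype libraries, as in 5.04% of all tested genes, but batch 1 set the size: the log2 fold change was 2.66 (SE 1.59, edgeR adjusted p = 1.00) with 6 libraries and 0.74 (SE 0.502, adjusted p = 0.713) without that batch. Idh3b had 19.5, 25.7 and 35.8 CPM against 40.9, 33.3 and 22.2 CPM, with overlapping groups. Exons of Idh3b overlap those of Nop56 on the other strand, so its count is uncertain. Idh3g had 8.33, 29.1 and 33.7 CPM against 0, 65.8 and 39.8 CPM, higher in Sdha-KO in batches 2 and 3 and at 0 in batch 1. Subunits of 1 enzyme therefore had unlike values in Sdha-KO replicate 1, which held 2211 counts of Idh3a, 490 of Idh3b and none of Idh3g.

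Citrate synthase (Cs), which joins acetyl-CoA and oxaloacetate, had 12.4, 27.3 and 50.04 CPM in wildtype and 124, 41.8 and 53.8 CPM in Sdha-KO libraries. It was higher in Sdha-KO within 3 of 3 batches, by 9.99-fold, 1.53-fold and 1.08-fold. The batch 1 pair thus held most of the difference, and the log2 fold change went from 1.29 (SE 0.823, edgeR adjusted p = 1.00) to 0.32 (SE 0.434, adjusted p = 0.918) without that batch.

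**Figure D2:**
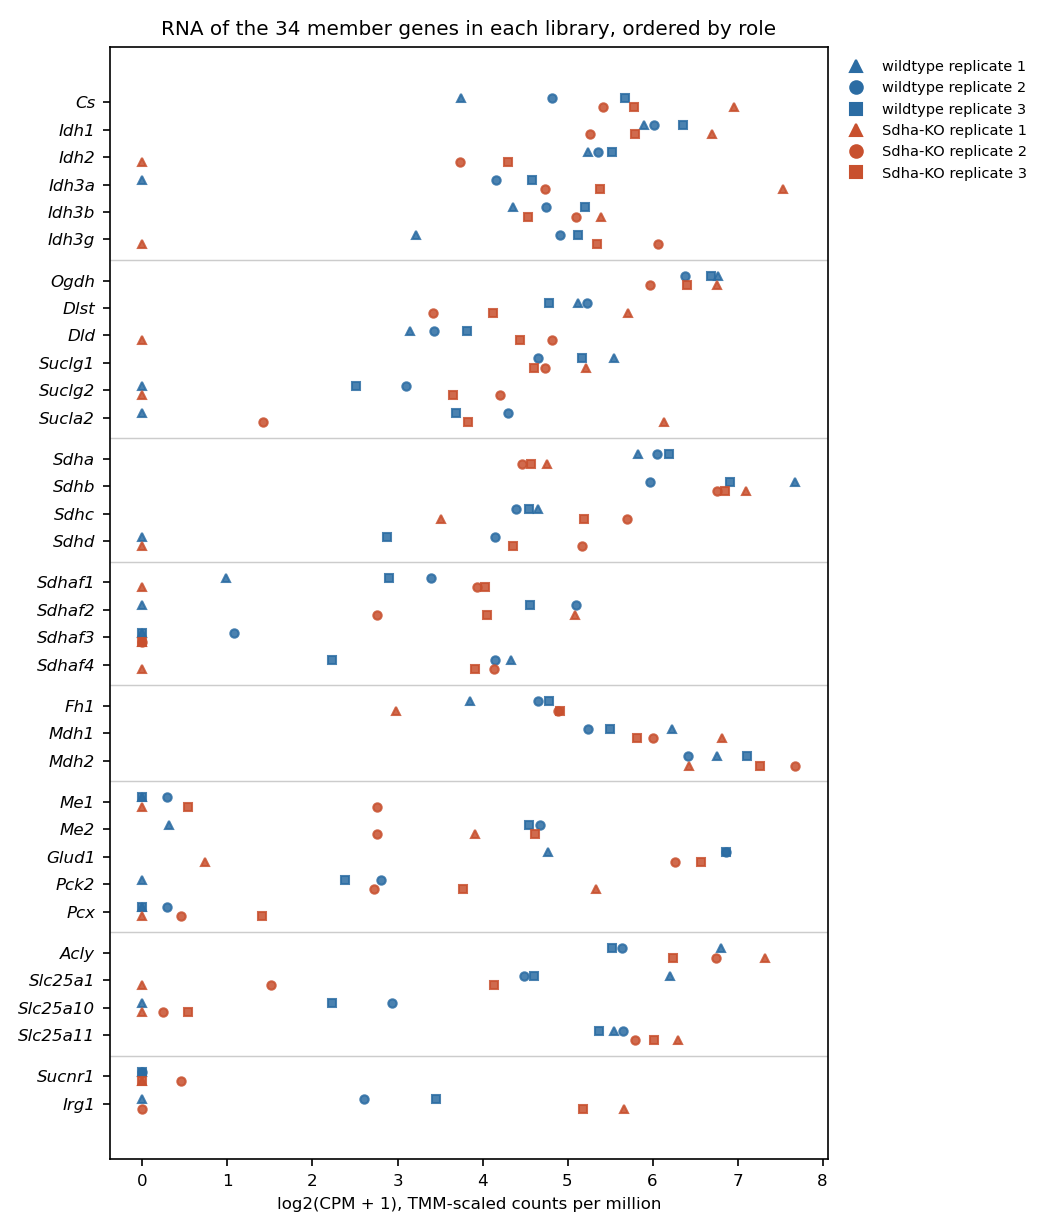
RNA of each of the 34 members in each library as log2(CPM + 1), blue for wildtype and red for Sdha-KO, with triangles, circles and squares for replicates 1, 2 and 3 and grey lines between roles. Triangles lie at 0 or far to the right for many genes, as 12 members are at 0 in wildtype replicate 1, 13 are at 0 in Sdha-KO replicate 1, and 1 to 4 are at 0 elsewhere.

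From 2-oxoglutarate to succinate, the 2-oxoglutarate dehydrogenase complex (Ogdh, Dlst and Dld) makes succinyl-CoA. Ogdh, its first component, had 108, 82.6 and 102 CPM in wildtype and 107, 61.7 and 83.8 CPM in Sdha-KO libraries, a log2 difference of -0.21 (SE 0.484, edgeR adjusted p = 1.00) with 6 libraries and -0.34 (SE 0.314, adjusted p = 0.832) without both batch 1 libraries. The groups overlapped, and the 6-library sign turned to 0.10 when library totals alone set the scale. Dlst, the succinyl transferase, had 33.9, 36.6 and 26.5 CPM against 51.6, 9.67 and 16.4 CPM. It was lower in batches 2 and 3, by 3.79-fold and 1.62-fold, and higher in batch 1. Dld, the component shared with pyruvate dehydrogenase, had 7.84, 9.76 and 13.1 CPM against 0, 27.2 and 20.7 CPM. Here batches 2 and 3 were higher in Sdha-KO, by 2.78-fold and 1.58-fold, so genes of 1 complex differed in opposite directions in these 4 libraries, and neither passed (log2 differences -1.26, SE 0.559, and 1.07, SE 0.587, edgeR adjusted p = 0.504 and 0.610).

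Succinyl-CoA ligase then releases succinate. Suclg1 encodes its shared alpha subunit and had 45.7, 24.2 and 35.1 CPM in wildtype and 36.1, 25.7 and 23.4 CPM in Sdha-KO libraries, with overlapping groups. The beta subunits set the nucleotide, GDP for Suclg2 and ADP for Sucla2. Suclg2 had 0, 34 and 37 counts in wildtype and 0, 94 and 78 counts in Sdha-KO libraries. Sucla2 had 0, 84 and 93 counts against 829, 9 and 89 counts. In batches 2 and 3 Suclg2 took 28.8% and 28.5% of the counts of both genes in wildtype and 91.3% and 46.7% in Sdha-KO libraries. Neither gene had a count in wildtype replicate 1, and Sdha-KO replicate 1 had counts of Sucla2 alone, so batch 1 gave no comparison of this share. The fits gave log2 differences of 1.25 (SE 2.57) for Suclg2 and 1.47 (SE 2.09) for Sucla2, and without both batch 1 libraries 1.26 (SE 0.812, edgeR adjusted p = 0.698) and -1.01 (SE 1.02, adjusted p = 0.857). Suclg2 shares 3' sequence with the annotated gene Gm15163, so its count is uncertain.

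**Figure D3:**
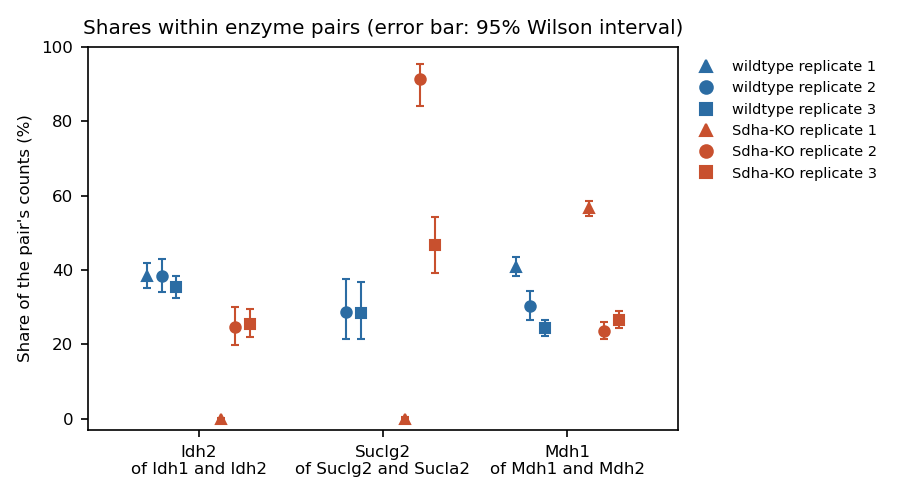
Percent of counts taken by 1 gene of 3 enzyme pairs in each library, with 95% Wilson intervals: Idh2 against Idh1, Suclg2 against Sucla2, and Mdh1 against Mdh2. The Idh2 share is 35.5% to 38.5% in wildtype and 0% to 25.6% in Sdha-KO libraries, whereas the Mdh1 shares of the genotypes overlap; wildtype replicate 1 has no count of either ligase gene and no point there.

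After succinate dehydrogenase, fumarase and malate dehydrogenase close the cycle. Fh1, the fumarase gene, had 13.5, 24.2 and 26.6 CPM in wildtype and 6.93, 28.6 and 29.1 CPM in Sdha-KO libraries, with a fitted log2 difference of 0.01 (SE 1.503), and 0.19 (SE 0.453) without both batch 1 libraries. The mitochondrial malate dehydrogenase gene Mdh2 had 107, 84.5 and 137 CPM against 85.4, 203 and 153 CPM. It was higher in batches 2 and 3, by 2.41-fold and 1.11-fold, and lower in batch 1. The cytosolic gene Mdh1 had 74.1, 36.8 and 44.2 CPM against 111, 63.2 and 55.3 CPM and was higher in Sdha-KO within 3 of 3 batches (log2 difference 0.57, SE 0.63, edgeR adjusted p = 1.00, and 0.56, SE 0.353, adjusted p = 0.692 without both batch 1 libraries). Mdh1 held 40.9%, 30.3% and 24.4% of the counts of both malate dehydrogenases in wildtype and 56.6%, 23.7% and 26.6% in Sdha-KO libraries. The share was higher in Sdha-KO in batches 1 and 3 and lower in batch 2, and the genotypes overlapped. Exons of Mdh1 overlap those of Wdpcp on the other strand, so its count is uncertain.

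The enzymes that fill the cycle or take malate and oxaloacetate from it were low or uneven. Glud1, which makes 2-oxoglutarate from glutamate, had 26.2, 115 and 115 CPM in wildtype and 0.668, 76.1 and 93.8 CPM in Sdha-KO libraries. It was lower in all 3 batches with overlapping groups, at a log2 difference of -0.59 (SE 1.30) and, without both batch 1 libraries, of -0.43 (SE 0.278). It shares 3' sequence with the pseudogene Glud-ps. Pck2, the mitochondrial phosphoenolpyruvate carboxykinase, had 0, 27 and 33 counts in wildtype and 471, 30 and 85 counts in Sdha-KO libraries. Scaled, this was 0, 5.99 and 4.20 against 39.3, 5.58 and 12.7 CPM, so Sdha-KO was level with wildtype in batch 2 and higher in the others. Its log2 difference was 2.50 (SE 2.24, edgeR adjusted p = 1.00) with 6 libraries and 0.85 (SE 1.08, adjusted p = 0.909) without both batch 1 libraries, and exons of Gm10876 on the other strand and near-identical 3' sequence in 13 other annotated genes make its count uncertain. Me2, a mitochondrial malic enzyme, had 0.245, 24.6 and 22.3 CPM against 14.1, 5.76 and 23.5 CPM, with overlapping groups. The cytosolic malic enzyme Me1 had 1 count in wildtype replicate 2 and none in the other wildtype libraries, against 0, 31 and 3 counts in Sdha-KO. Pcx, pyruvate carboxylase, had 0, 1 and 0 counts against 0, 2 and 11, so pyruvate carboxylase RNA was at or near the detection limit in 5 of 6 libraries.

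Citrate leaves mitochondria through the carrier encoded by Slc25a1 (chr16:17925223-17928219, mm10, minus strand). Slc25a1 had 72.8, 21.5 and 23.4 CPM in wildtype and 0, 1.86 and 16.5 CPM in Sdha-KO libraries, without overlap of the genotypes. Its log2 fold change was -2.68 (SE 1.99, edgeR adjusted p = 1.00) with 6 libraries and -1.27 (SE 0.947, adjusted p = 0.751) without both batch 1 libraries. ATP-citrate lyase (Acly), which cleaves the exported citrate to acetyl-CoA, had 111, 48.8 and 45.1 CPM in wildtype and 159, 106 and 74.7 CPM in Sdha-KO libraries. It was higher within 3 of 3 batches by 1.44-fold, 2.17-fold and 1.66-fold, and wildtype replicate 1 overlapped the Sdha-KO range. The log2 difference was 0.73 (SE 0.556, edgeR adjusted p = 1.00), and 0.96 (SE 0.333, unadjusted p = 0.0218, adjusted p = 0.397) without both batch 1 libraries.

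The mitochondrial dicarboxylate carrier gene Slc25a10, which exchanges succinate or malate for phosphate, had 0, 30 and 29 counts in wildtype and 0, 1 and 3 counts in Sdha-KO libraries. It was thus lower in Sdha-KO in batches 2 and 3 and not detected in batch 1. It was testable without both batch 1 libraries, where the log2 difference was -3.92 (SE 2.15, edgeR adjusted p = 0.612), and its exons overlap those of Gm11788 on the other strand. Slc25a11 (chr11:70644196-70647479, mm10, minus strand), the oxoglutarate and malate carrier gene, had 45.8, 49.5 and 40.5 CPM in wildtype and 77.9, 54.5 and 63.6 CPM in Sdha-KO libraries. The genotypes did not overlap, at a log2 difference of 0.53 (SE 0.653, edgeR adjusted p = 1.00) and, without both batch 1 libraries, of 0.40 (SE 0.352, adjusted p = 0.811). Its exons overlap those of Rnf167, so its count is uncertain.

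Extracellular succinate is sensed by the receptor Sucnr1, which had 2 counts in Sdha-KO replicate 2 and none in the other 5 libraries. Receptor RNA was therefore not detectable at this depth in 5 libraries. Irg1 (Acod1 in current annotation), the itaconate synthase that inflammatory stimuli induce in macrophages, had 0, 23 and 78 counts in wildtype and 596, 0 and 237 counts in Sdha-KO libraries. Scaled, the values were 0, 5.10 and 9.93 against 49.7, 0 and 35.3 CPM. Sdha-KO was higher in batches 1 and 3 and not detected in batch 2, and the fit gave a log2 difference of 2.50 (SE 2.38, edgeR adjusted p = 1.00). Without both batch 1 libraries the log2 difference was 1.24 (SE 1.68, edgeR adjusted p = 0.918), and adding the replicate block to that fit turned it to -0.98 (SE 2.36).

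**Figure D4:**
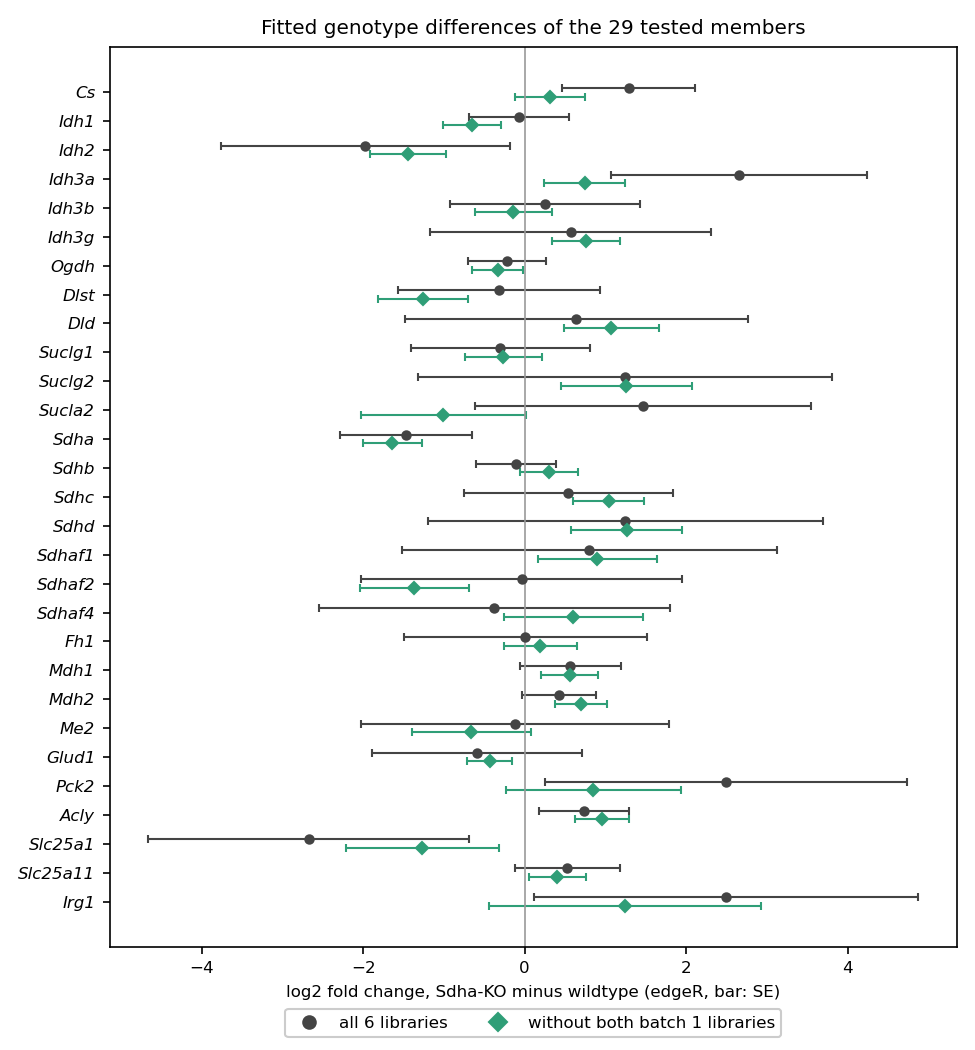
Log2 fold changes (Sdha-KO minus wildtype, edgeR) of the 29 tested members with bars for SE, in grey circles for all 6 libraries and green diamonds without both batch 1 libraries. SEs are smaller without that batch, Sdha is at -1.47 and -1.64, and Sucla2, Idh3b, Sdhb and Sdhaf4 lie on opposite sides of 0 in the 2 fits.

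Across the members, 0 of 29 passed the adjusted threshold with 6 libraries, and none had an unadjusted p under 0.05, against 2.64% of all tested genes by edgeR. DESeq2 and limma-voom called 0 members as well, at 0.248% and 0.793% of all genes, and edgeR called 0 with library totals alone (0.0903%), with no filter on low counts (0.312%) or without the rows Rn45s, Rn4.5s and Lars2 (0.0498%). The fitted log2 difference was positive in 17 of 29 members (58.6%, beside 45% of all tested genes) and negative in 12, with a median of 0.42 beside -0.13 over all tested genes. Sdha-KO lay below wildtype without overlap in 3 members (Sdha, Idh2 and Slc25a1), which is 10.3% beside 9.27% of all tested genes, and above it in 2 (Idh3a and Slc25a11), which is 6.90% beside 5.04%. Sdha-KO was lower within 3 of 3 batches in 5 members and higher in 5, which is 17.2% each, beside 19.9% and 11.4% of all tested genes. With library totals alone as the scale, the members higher in 3 of 3 batches were 7 (Mdh2 and Pck2 in addition), which is 24.1% beside 13.1% of all tested genes. In batches 2 and 3 alone, 13 of 29 were higher and 8 lower in both, which is 44.8% and 27.6% beside 28.1% and 32.3% of all tested genes. Without both batch 1 libraries, 4 of 30 members had an unadjusted p under 0.05 (Sdha, Idh2, Sdhc and Acly), which is 13.3% beside 10.2% of all genes, and 0 passed the adjusted threshold, beside 0.251%. With the replicate block as well, the 1 of 30 that passed was Sdha, which is 3.33% beside 3.01% of all genes.

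Other genes of the pathway were taken from lists of names, and 0 of the 33 tested of 52 with a row passed the threshold (edgeR; none had an unadjusted p under 0.05, and 0.0502% of all genes were called). Of 10 tested genes of pyruvate entry and acetyl-CoA, 5 were positive and 5 negative. The most abundant was Mpc2, a subunit of the mitochondrial pyruvate carrier, with 47.2, 73.2 and 61.0 CPM in wildtype and 265, 58.2 and 60.7 CPM in Sdha-KO libraries. Only the batch 1 pair differed widely. Of 8 tested genes of glutamine and aspartate entry, 3 were positive and 5 negative. Got2, the mitochondrial aspartate aminotransferase, named after its values were seen, had 30.0, 38.4 and 37.6 CPM against 78.0, 57.8 and 68.6 CPM without overlap (log2 difference 0.95, SE 0.698, edgeR adjusted p = 1.00, and 0.75, SE 0.349, adjusted p = 0.521 without both batch 1 libraries).

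For the route that reaches succinate through GABA, Abat and Aldh5a1 had at most 7 counts in any library and were not tested. Routes through propionate or ketone bodies had 2 positive and 4 negative genes of 6 tested. The most abundant was Oxct1, the ketone body transferase that releases succinate, with 55.3, 52.8 and 79.1 CPM in wildtype and 0, 45.4 and 114 CPM in Sdha-KO libraries, which overlapped. Clybl, a mitochondrial enzyme that clears the CoA product of itaconate, was the 1 tested gene of itaconate handling and had 30.3, 21.5 and 14.4 CPM against 0, 19.2 and 6.71 CPM. It was lower in each batch with overlapping groups (log2 difference -1.36, SE 2.07, edgeR adjusted p = 1.00, and -0.46, SE 0.729, adjusted p = 0.936 without both batch 1 libraries). Of 5 tested genes that supply flavin and iron-sulphur clusters to complex II, 4 were positive and 1 negative. The median log2 difference was 0.03 for pyruvate entry, -0.35 for glutamine and aspartate entry, -0.26 for the routes to succinate and 1.03 for this supply list, and over the 33 genes of all pathway lists it was -0.0088, beside -0.13 over all tested genes. Rfk, riboflavin kinase and the most abundant of them, had 0.245, 12.2 and 14.6 CPM in wildtype and 8.43, 25.8 and 21.2 CPM in Sdha-KO libraries. It was higher in each batch and did not pass (log2 difference 1.03, SE 1.92, edgeR adjusted p = 1.00, and 0.82, SE 0.562, adjusted p = 0.724 without both batch 1 libraries).

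Markers of the sorted cells and of other cells are given beside these values. The 17 alveolar macrophage and gate genes summed to 9997 to 12020 CPM in wildtype and 8603 to 11175 CPM in Sdha-KO libraries. Their log2 differences were positive in 6 and negative in 11, with a median of -0.76 beside -0.13 over all tested genes. Sdha-KO was lower within 3 of 3 batches in 7, among them the gate genes Ptprc and Itgax, and higher in 4. Of all tested genes, 19.9% and 11.4% were so. Chil3 alone had 3507 to 5424 CPM over the 6 libraries. Of the 17, 1 fell past the threshold with 6 libraries: Ear1, a ribonuclease gene, at a log2 difference of -2.26 (SE 0.321, edgeR adjusted p = 0.0261). Without both batch 1 libraries it stood at -2.37 (SE 0.254, edgeR adjusted p = 0.0206). Ear2, a further ribonuclease gene, also passed there (-2.32, SE 0.214, edgeR adjusted p = 0.0155, beside 0.251% of all genes). Without overlap, Sdha-KO lay below wildtype in 4 of the 17 (Ear1, Ear2, Krt79 and Siglecf), beside 9.27% of all tested genes. It lay above in 1 (Car4), beside 5.04%. Itgam, which encodes the CD11b that the gate leaves out, had 1.40 to 9.80 CPM against 0 to 35.3 CPM. Summed levels were 15.2 to 28.4 against 0.501 to 137 CPM for 5 interstitial macrophage genes, 55.3 to 92.3 against 79.9 to 169 CPM for 5 neutrophil genes and 3.77 to 18.7 against 0.167 to 68.3 CPM for 6 dendritic cell genes. They were 68.4 to 133 against 40.7 to 129 CPM for 4 monocyte genes, 216 to 381 against 105 to 640 CPM for 5 lung epithelial genes, 8.40 to 17.6 against 0 to 9.09 CPM for 3 endothelial genes and 161 to 249 against 87.0 to 388 CPM for 5 erythroid genes. In batches 2 and 3, the marker sums of interstitial macrophages, dendritic cells and neutrophils were higher in the Sdha-KO libraries, as was Itgam. The monocyte sum, of which Fn1 held most in wildtype, was lower in both. Replicates 2 and 3 had 20.6 and 28.4 CPM in wildtype against 74.2 and 137 CPM in Sdha-KO for the interstitial macrophage genes, with all 5 higher in both batches. They had 3.77 and 17.4 against 51.1 and 68.3 CPM for the dendritic cell genes, 83.7 and 55.3 against 169 and 153 CPM for the neutrophil genes and 7.32 and 1.40 against 35.3 and 22.5 CPM for Itgam. The monocyte genes had 126 and 133 against 40.7 and 108 CPM, of which Fn1 held 113 and 105 against 13.0 and 27.1 CPM. Among the other monocyte genes, Ccr2 was higher in Sdha-KO in both batches. Plac8 was higher and Ly6c2 lower in batch 3, and both were at 0 in batch 2. Within the neutrophil list, Cxcr2 had 11.5 and 0.891 against 80.9 and 28.5 CPM, while Csf3r had 5.55 and 4.46 against 0 CPM in both. In batch 2, S100a9, Retnlg and the dendritic cell gene Xcr1 were also lower in Sdha-KO. The 2 tested monocyte genes went opposite ways, each without overlap. Ccr2, a chemokine receptor of monocytes, had 5.39, 13.1 and 21.5 CPM in wildtype and 79.0, 27.7 and 68.1 CPM in Sdha-KO libraries. Fn1 had 63.0, 113 and 105 CPM against 49.99, 13.0 and 27.1 CPM. Of all tested genes, 5.04% lay above and 9.27% below without overlap. The log2 differences without both batch 1 libraries were 1.48 (SE 0.565, edgeR adjusted p = 0.448) and -2.42 (SE 0.428, adjusted p = 0.0967). These differences stand beside every member value of the fit without both batch 1 libraries. B cell genes summed to at most 27.6 CPM and T cell genes to at most 8.02 CPM, and of 4 eosinophil genes Prg2 and Epx were at 0 in all 6 libraries. The part of other cells in the member values was not tested, and in bulk RNA fewer cells of a type and less RNA per cell cannot be told apart.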

How the data were processed

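RNA was measured in 6 libraries (3 wildtype, 3 Sdha-KO). The deposited values are raw read counts per gene symbol. The chemistry, per the labels' protocols, was TRIzol extraction followed by QuantSeq 3' mRNA library preparation, so counts do not scale with transcript length. The submitters' processing notes name Bowtie2, bedtools and mm10. Neither annotation nor strand use is given in the sources used here.

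Genotypes were compared over all rows with edgeR 4.0.16 (robust quasi-likelihood test with genotype as the only term, TMM factors, filterByExpr at a minimum count of 10) and Benjamini-Hochberg adjustment at 0.05. The SE is the size of the log2 fold change over the root of its F value. Alternatives used RLE factors, library totals alone, other filters, DESeq2 1.42.0, limma-voom 3.58.1, the replicate block, each library left out and repeated symbols summed. Leaving out both batch 1 libraries or the rows Rn45s, Rn4.5s and Lars2 was added after seeing the data. The labels give each replicate number as a batch, so numbers pair the samples. Deviations from the group means correlated at 0.155, 0.117 and 0.126 within pairs. Between unmatched numbers they correlated at -0.152 to 0.111. Batches 2 and 3 were little set apart from each other, as their unmatched libraries gave 0.111 and 0.0568.

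Gene models are GENCODE M21 (mm10). A count was called uncertain where exons overlap another gene or where the last 400 bases share at least 75 bases at 95% identity with another gene. The members, lists and alternatives were chosen with earlier results of these data known. All members are named, and from other pathway lists the most abundant tested gene, except where a result is not reported here.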

Additional observations from a re-analysis of the deposited data

How the results depend on the processing

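Of 29 tested members, 12 were fitted under all 17 alternatives and kept their sign in each, among them Sdha, Idh2, Idh3a, Mdh1, Mdh2, Acly, Slc25a1 and Slc25a11. With 6 libraries the replicate block called 0 members, as it called 0 of all 9963 tested genes. The fit without the block called no member either, so there was no call to lose. Without both batch 1 libraries and with the replicate block, 1 member passed (Sdha, log2 difference -1.64, edgeR adjusted p = 0.0327, range over the alternatives 0.0327 to 1.00). That fit has few libraries for its terms, and it called 3.01% of all genes. Leaving out 1 library moved Sdha between -1.57 and -1.38. The cause of the changes below was not tested.

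The members' median log2 difference of 0.42 became 0.60 with library totals alone, -0.0095 with the stricter filter, which tests no Irg1, Suclg2, Sdhd, Sucla2 or Sdhaf1, 0.011 with limma-voom, 0.23 with the replicate block, 0.31 without both batch 1 libraries and 0.28 there with the replicate block. Over all genes the median moved from -0.13 to 0.05, -0.65 and -0.48 with library totals, limma-voom and the block. Leaving out 1 library gave 0.17 to 0.46 for the members.

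Signs that turned are given as log2 differences. Library totals alone gave 0.31 for Idh1, 0.10 for Ogdh, 0.15 for Dlst, 0.14 for Sdhb, 0.48 for Sdhaf2 and 0.21 for Me2. Limma-voom gave 0.011 for Idh1, -2.67 for Idh3g, -2.03 for Dld, -0.26 for Sdhc, -1.02 for Sdhaf1, 2.57 for Sdhaf2, -0.64 for Fh1 and 1.42 for Me2. The replicate block gave -0.86 for Idh3g, -0.51 for Dld, 0.047 for Sdhb, -0.44 for Sdhaf1, 0.23 for Sdhaf2, -0.19 for Fh1 and 0.65 for Me2. Without both batch 1 libraries the values were -0.14 for Idh3b, -1.01 for Sucla2, 0.30 for Sdhb and 0.60 for Sdhaf4, and with the replicate block as well -0.15, -1.56, 0.37 and 0.96, and -0.98 for Irg1. Leaving out 1 library gave ranges of -0.56 to 0.21 for Idh1, -0.24 to 1.16 for Idh3g, -1.31 to 0.076 for Dlst, -0.43 to 2.23 for Sucla2, -0.45 to 0.39 for Sdhb, -0.79 to 0.67 for Sdhaf2, -0.91 to 0.21 for Sdhaf4, -0.27 to 0.43 for Fh1 and -0.70 to 0.35 for Me2.

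With library totals alone, Pck2 joined Idh3a and Slc25a11 as members with Sdha-KO above wildtype without overlap, which is 10.3% of members beside 6.44% of all tested genes. Ogdh was then no longer lower in 3 of 3 batches.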
